A study of Mus musculus with 9 samples.

Results

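The tetraspanin genes described here are 10 genes of the mouse genome, Cd9, Cd63, Cd81, Cd82, Cd151, Tspan1, Tspan4, Tspan6, Tspan8 and Tspan14, chosen by name from the 54838 genes counted. Each symbol matched 1 Ensembl identifier. They were followed in 9 RNA-seq libraries of PDA530 Met, a pancreatic ductal adenocarcinoma line established from tumour that had spread to the liver in a male KPC mouse (mixed 129/SvJae/C57Bl/6 background). The 3 groups, of 3 libraries each, were all untreated cultures in normal growth medium. The knockout group was clone E4, grown from a single cell after CRISPR/Cas9 editing of Zdhhc20. The control group was clone C5, also grown from a single cell, which went through nucleofection with those guide RNAs without being edited and so keeps Zdhhc20 expression. The uncloned line made up the parental group, and the design text writes it as PDA50 Met. Each clone group is 1 clone, so its libraries do not replicate the edit across clones, and effects of editing and of cloning cannot be told apart within it. The design text calls the libraries of a group biological replicates, and nothing says which were separate cultures, so p-values measure the spread between these libraries. In bulk RNA, fewer cells of a kind and less RNA per cell cannot be told apart.

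Tetraspanins are small membrane proteins that span the membrane several times and hold other surface proteins, chiefly integrins, immunoglobulin-family proteins and proteases, in shared patches of membrane. They carry palmitate on cysteines next to the membrane, a lipid added by palmitoyltransferases of the ZDHHC family, and this lipid helps them associate with each other. ZDHHC2 is known to palmitoylate CD9 and CD151, and ZDHHC20, the enzyme targeted here, is another member of that family. Palmitoylation acts on the protein, and RNA-seq measures the messenger RNA alone, so neither the lipid nor the protein was measured.

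Total counts per library ranged from 16525869 to 23192701. Values are given as CPM, counts scaled to a common library total after TMM normalization between libraries. A gene was called when its adjusted p (Benjamini-Hochberg over 13153 genes, edgeR quasi-likelihood test) was under 0.05, and SE is the standard error of a log2 fold change. Zdhhc20 was at 37.5, 33.9 and 42.5 CPM in the E4 libraries, 123, 85.8 and 120 CPM in the C5 libraries and 75.3, 81.2 and 90.7 CPM in the parental libraries, so its transcript was lower but present in clone E4. Its log2 fold change was -1.53 (adjusted p 6.97e-05) against clone C5 and -1.12 (adjusted p 0.000585) against the parental line. Libraries of clone C5 were less alike than those of the other groups, since the median SD of log2 CPM was 0.241 there against 0.0935 in clone E4 and 0.104 in the parental line. Over genes, Pearson's r of log2 CPM between C5 libraries was 0.9637 to 0.982, against 0.9878 to 0.9906 between libraries of the other groups, genes not being independent replicates. The cell type label was checked against 8 epithelial markers. Keratin genes Krt8, Krt18, Krt19 and Krt7 and the cadherin gene Cdh1 were expressed in every group, while Epcam, a defining epithelial surface gene, was at most 0.635 CPM in any library. Summed over a library, the 8 markers were at 4410 to 4550 CPM in clone E4, 7290 to 9750 CPM in clone C5 and 6820 to 8300 CPM in the parental line. Of the 7 leukocyte markers, 5 were at 0 counts in clone E4, 3 in clone C5 and 4 in the parental line, and their sum was at most 1.31 CPM in any library. The 6 fibroblast markers summed to at most 3.95 CPM, with 4 of them at 0 in every group, and the 4 endothelial markers to at most 0.525 CPM. Of 4 acinar markers, 3 were at 0 in every group, and the list summed to 1.22 to 1.32 CPM in clone E4, 3.99 to 7.66 CPM in clone C5 and 1.59 to 2.94 CPM in the parental line.

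Of the 10 tetraspanin genes, 8 passed the filter on low counts. Per length, Tspan8 and Cd9 were the most abundant, Tspan6 was not detected, and Tspan1 held 43 counts over all libraries. In clone E4, Tspan8, Cd9, Cd63 and Cd81 were called lower against both other groups, by 1.3-fold to 2.44-fold. Cd82 and Tspan4 were called lower against clone C5 alone. Cd151 was not called, with values of 0.02 to 0.04 on the log2 scale in the 3 comparisons, and Tspan14 was called higher against the parental line. Over 17 alternative fits, the Tspan4 call was lost in 7, the Tspan14 call in 8 and the Cd9 call against the parental line in 5. The 3 comparisons share libraries with each other, so their values for a gene are set side by side and are not independent.

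To show the DNA in front of genes called lower in clone E4 and of one that was not called, the promoter windows of Tspan8, Cd9, Cd81 and Cd151 are given below, from 250 bases before to 50 bases after the annotated start. They are RefSeq sequences of build GRCm38.p6, written in the direction of the gene. RefSeq starts can differ from the gene positions given below, and the windows of Tspan8 and Cd63 lie inside the spans given there. Capitals mark matches to the letters searched on both strands: the GC box GGGCGG, the TATA box TATAAA, the CCAAT box CCAAT, the E-boxes CACGTG and CACCTG, and the AP-1 site TGANTCA. All 10 genes had at least 1 window, 16 windows in all.
Tspan8, chr10:115817034-115817333, plus strand: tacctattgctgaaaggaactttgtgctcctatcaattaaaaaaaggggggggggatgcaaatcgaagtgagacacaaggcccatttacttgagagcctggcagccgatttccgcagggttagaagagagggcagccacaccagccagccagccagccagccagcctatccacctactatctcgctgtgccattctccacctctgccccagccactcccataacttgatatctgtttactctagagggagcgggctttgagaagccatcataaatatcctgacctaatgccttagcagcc
Cd9, chr6:125494711-125495010, minus strand: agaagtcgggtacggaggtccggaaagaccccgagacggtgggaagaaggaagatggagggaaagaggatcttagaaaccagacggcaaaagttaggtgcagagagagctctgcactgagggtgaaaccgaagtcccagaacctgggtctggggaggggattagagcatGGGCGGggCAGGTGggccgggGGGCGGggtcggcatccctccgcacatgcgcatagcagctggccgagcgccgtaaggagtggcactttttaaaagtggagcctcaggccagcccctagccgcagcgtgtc
Cd81, chr7:143052500-143052799, plus strand: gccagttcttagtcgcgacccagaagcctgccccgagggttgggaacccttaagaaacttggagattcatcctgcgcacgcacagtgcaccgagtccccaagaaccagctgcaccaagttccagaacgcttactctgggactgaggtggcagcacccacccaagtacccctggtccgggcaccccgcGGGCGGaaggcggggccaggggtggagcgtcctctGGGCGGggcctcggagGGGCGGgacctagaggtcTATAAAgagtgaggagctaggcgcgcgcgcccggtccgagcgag
Cd151, chr7:141467112-141467411, plus strand: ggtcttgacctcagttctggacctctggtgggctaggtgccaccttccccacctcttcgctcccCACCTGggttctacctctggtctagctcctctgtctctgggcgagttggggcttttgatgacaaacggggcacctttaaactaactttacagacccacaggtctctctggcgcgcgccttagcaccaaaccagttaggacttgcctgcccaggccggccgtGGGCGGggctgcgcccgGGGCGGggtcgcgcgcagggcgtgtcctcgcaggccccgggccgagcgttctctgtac

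The Tspan8 window held 5 CpG dinucleotides and a GC content of 51.7%, and none of the 6 motifs was found in it, which says no more than that these letters are not in this window. The Cd63 window, with 6 CpG, held none of them either. The printed windows of Cd9, Cd81 and Cd151 held 18, 23 and 20 CpG, against a median of 7 over 32851 promoter windows of this length. The GC box was found 2 times in the Cd9 window, 3 times in the Cd81 window and 2 times in the printed Cd151 window, and 35.7% of all windows held at least 1. CACCTG was found once each in the Cd9 and printed Cd151 windows (20.2% of all windows) and TATAAA once in the Cd81 window (13.6%). Cd151 has 2 annotated windows, and the other, with 4 CpG, held 0 GC boxes and none of the other motifs. A GC box was thus found for Cd9 and Cd81, which were called lower in clone E4, and in 1 of the 2 windows of Cd151, which was not called. Matching letters describe the sequence and are not evidence of binding.

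Levels can be compared between genes only per length, here as CPM per kilobase (kb) of annotated protein-coding exon. In the parental line Cd9 was highest at 324 ± 37.8 CPM per kb (SD, n = 3) and Tspan8 followed at 259 ± 29.2. The libraries of these genes overlapped, although Cd9 was above Tspan8 in 3 of 3. After a wide gap came Cd151 at 48.6 ± 2.16, Cd81 at 46.8 ± 2.1, Tspan4 at 45.3 ± 2.38 and Cd63 at 41.4 ± 4.07 CPM per kb, each overlapping its neighbour in this order. Cd82 at 15.3 ± 2.66 and Tspan14 at 7.13 ± 0.437 CPM per kb stood below them and did not overlap each other. Over all libraries, 1.44% of the tested genes with a length lay above Cd9, 1.76% above Tspan8 and 48.8% above Tspan14.

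In clone E4 the order below Cd9 and Tspan8 was not that of the parental line. Cd9 was at 250 ± 3.96 CPM per kb (SD, n = 3) and Tspan8 at 155 ± 6.14, and these no longer overlapped. Cd151 at 50.1 ± 1.35 and Tspan4 at 35.4 ± 1.33 lay above Cd63 at 28.7 ± 3.91 and Cd81 at 26 ± 1.06 CPM per kb, the last pair overlapping. In clone C5 Cd9 at 413 ± 54 and Tspan8 at 378 ± 39.8 overlapped, and Tspan4, Cd63, Cd151 and Cd81 lay between 57.5 and 46 CPM per kb, each overlapping the next. Several places depend on the length used. Per length of the longest annotated transcript, Tspan8 in clone C5 was at 420 CPM per kb, above Cd9 at 413, and Tspan4 in the parental line was at 47.8, above Cd81 at 44.7. The longest Cd63 transcript has 2894 bases against 1450 bases of protein-coding exon. By it Cd63 was at 14.4, 26.3 and 20.8 CPM per kb in clone E4, clone C5 and the parental line, with Cd82 at 15.5, 27.4 and 16.2, so Cd63 lay below Cd82 in both clones.

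**Figure D1:**
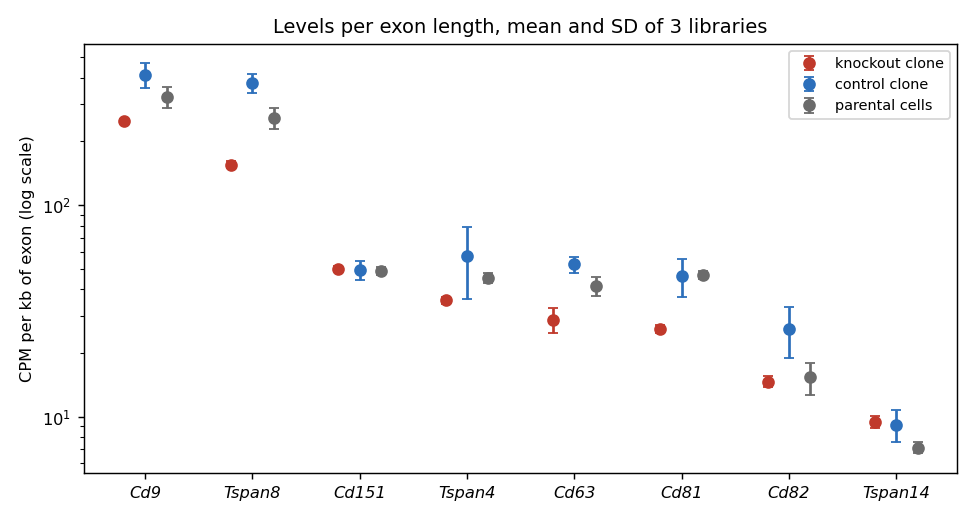
Mean level of the 8 tested tetraspanin genes per kilobase of annotated exon, with the SD of 3 libraries, on a log axis, for each group. Cd9 and Tspan8 stand above 150 CPM per kb in every group, and Tspan14 below 10.

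Tspan8 encodes a tetraspanin of epithelial cells of the gut and pancreas that is known for high levels in gastrointestinal cancers. It lies on chromosome 10 from 115816832 to 115849893 (GRCm38, plus strand). It was at 228, 237 and 247 CPM in the E4 libraries, 642, 519 and 579 CPM in the C5 libraries and 370, 374 and 449 CPM in the parental libraries. The 3 groups did not overlap, with clone E4 lowest and clone C5 highest. The log2 fold change of clone E4 was -1.29 against clone C5 (adjusted p 2.75e-05, SE 0.10) and -0.74 against the parental line (adjusted p 0.00073, SE 0.10). Between the clone that was not edited and its parental line it was 0.54 (adjusted p 0.00601, SE 0.10).

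Cd9, on chromosome 6 from 125460266 to 125494791 (minus strand), encodes a widely expressed tetraspanin that binds the immunoglobulin-family proteins IGSF8 and PTGFRN. Its levels were 302, 307 and 312 CPM in the E4 libraries, 543, 431 and 548 CPM in the C5 libraries and 355, 391 and 447 CPM in the parental libraries. All E4 libraries lay below all others, and the lowest C5 library lay within the parental range. The log2 fold change was -0.73 against clone C5 (adjusted p 0.000849, SE 0.11) and -0.37 against the parental line (adjusted p 0.031, SE 0.11). The latter call was lost without E4 replicate 1, 2 or 3 (adjusted p 0.105, 0.0928 and 0.0797), parental replicate 2 (0.0819) or parental replicate 3 (-0.28, 0.138). For C5 against parental it was 0.35 (adjusted p 0.0511, SE 0.11), and this was called by DESeq2 (0.0277), with no filter on low counts (0.0403) and, at 0.45, when C5 replicate 2 was left out (adjusted p 0.00598).

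Cd63, on chromosome 10 from 128900989 to 128912822 (plus strand), encodes a tetraspanin of late endosomes and lysosomes that is used as a marker of exosomes. It was at 37.4, 48.1 and 39.5 CPM in the E4 libraries, 81.8, 77.9 and 68.8 CPM in the C5 libraries and 57.9, 55.6 and 66.8 CPM in the parental libraries. The groups did not overlap, and their order was that of Tspan8. The log2 fold change was -0.87 against clone C5 (adjusted p 0.000418, SE 0.12) and -0.53 against the parental line (adjusted p 0.00862, SE 0.12). Cd63 was 0.34 higher on the log2 scale in clone C5 than in the parental line (adjusted p 0.0662, SE 0.12), which was called by DESeq2 (0.0466) and without C5 replicate 3 (0.41, adjusted p 0.0267).

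Cd81, on chromosome 7 from 143052739 to 143067934 (plus strand), encodes a close relative of CD9 that is also found on exosomes. Its levels were 39.8, 38.3 and 41.5 CPM in the E4 libraries, 71.7, 55.6 and 84.5 CPM in the C5 libraries and 70, 69.8 and 75.5 CPM in the parental libraries. The E4 libraries were lowest, and the control and parental libraries overlapped. The log2 fold changes of clone E4 were -0.82 (adjusted p 0.00108, SE 0.13) against clone C5 and -0.85 (adjusted p 0.00143, SE 0.13) against the parental line. C5 and parental libraries differed by -0.02, with a 95% interval from -0.32 to 0.27 (adjusted p 0.918).

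Cd82, on chromosome 2 from 93419111 to 93463140 (minus strand), encodes a tetraspanin known as a suppressor of metastasis. It was at 26.4, 29.6 and 28.8 CPM in the E4 libraries, 60.4, 34.7 and 55 CPM in the C5 libraries and 27.7, 25.6 and 35.4 CPM in the parental libraries. C5 replicates 1 and 3 stood above all other libraries, while C5 replicate 2 lay below the highest parental library. Cd82 was lower in clone E4 than in clone C5 by a log2 fold change of -0.83 (adjusted p 0.00791, SE 0.20). Against the parental line the value was -0.06, with a 95% interval from -0.51 to 0.38 (adjusted p 0.834). Clone C5 was higher than the parental line by 0.76 (adjusted p 0.0231, SE 0.20), a call lost without C5 replicate 1 (0.60, adjusted p 0.0769), without parental replicate 1 or 2 (0.098 and 0.103) and in the fit of the groups compared alone (0.0694).

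Cd151 and Tspan4 lie close to each other on chromosome 7, Cd151 from 141467392 to 141471473 and Tspan4 from 141475240 to 141493427, both on the plus strand and 3766 bases apart, with 1 other tested gene between them. Cd151 encodes the tetraspanin that binds the laminin-binding integrins most tightly. It was at 94.2, 98.1 and 99.1 CPM in the E4 libraries, 104, 99.6 and 84.5 CPM in the C5 libraries and 90.3, 98.7 and 93.7 CPM in the parental libraries, so all groups overlapped. Its log2 fold changes were 0.02 and 0.04 in clone E4, with 95% intervals from -0.18 to 0.21 against clone C5 (adjusted p 0.886) and from -0.15 to 0.24 against the parental line (adjusted p 0.74). Of 10020 genes averaging 5 CPM or more, 1.04% had a smaller range of group means than Cd151, at 0.04 on the log2 scale.

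Tspan4, a tetraspanin known from migrasomes, which are vesicles left behind by moving cells, was at 52.4, 55.4 and 56.4 CPM in the E4 libraries, 88, 122 and 56.1 CPM in the C5 libraries and 67.9, 74.3 and 67.8 CPM in the parental libraries. Clone C5 was spread widely, with replicate 3 within the E4 range and replicate 2 above all other libraries. The log2 fold change was -0.70 against clone C5 (adjusted p 0.0294, SE 0.22). That call was lost without any 1 E4 library (adjusted p 0.0908, 0.0752 and 0.0724 without replicates 1, 2 and 3), without C5 replicate 1 (0.0679) and without C5 replicate 2 (-0.39, 0.0523). It was also lost with limma voom (0.0511) and in the fit of the groups compared alone (0.0747). Against the parental line Tspan4 was at -0.35 (adjusted p 0.25, SE 0.22), although no E4 library reached the parental ones. It was called there without C5 replicate 3 (0.0312) and in the fit of the groups compared alone (0.000655). Between clone C5 and the parental line the value was 0.34 (adjusted p 0.298), and 0.59 without C5 replicate 3 (adjusted p 0.008).

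Tspan14, on chromosome 14 from 40906445 to 40966807 (minus strand), encodes a tetraspanin of the TspanC8 group, which escorts the protease ADAM10 to the cell surface. It was at 24.2, 22.1 and 25.1 CPM in the E4 libraries, 22.3, 19.3 and 27.3 CPM in the C5 libraries and 16.7, 18.3 and 18.8 CPM in the parental libraries. The parental libraries lay below all clone libraries, and the clones overlapped. The log2 fold change of clone E4 was 0.05 against clone C5, with a 95% interval from -0.24 to 0.34 (adjusted p 0.794), and 0.41 against the parental line (adjusted p 0.0392, SE 0.13). The latter was lost without E4 replicate 1, 2 or 3 (adjusted p 0.115, 0.0622 and 0.12), C5 replicate 1 (0.0541) or parental replicate 1, 2 or 3 (0.128, 0.101 and 0.0864), and with genes averaging under 5 CPM removed (0.0547). In that comparison the tested genes of chromosome 14 had a median of 0.21, against -0.01 for all genes. Their median was 0.19 for E4 against C5 and 0.04 for C5 against parental, against -0.02 and 0.01 for all genes. The part of the chromosome in the Tspan14 values was not tested. In C5 against parental, Tspan14 was at 0.36 (adjusted p 0.0768), and it was called without C5 replicate 2 (0.47, adjusted p 0.0132).

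**Figure D2:**
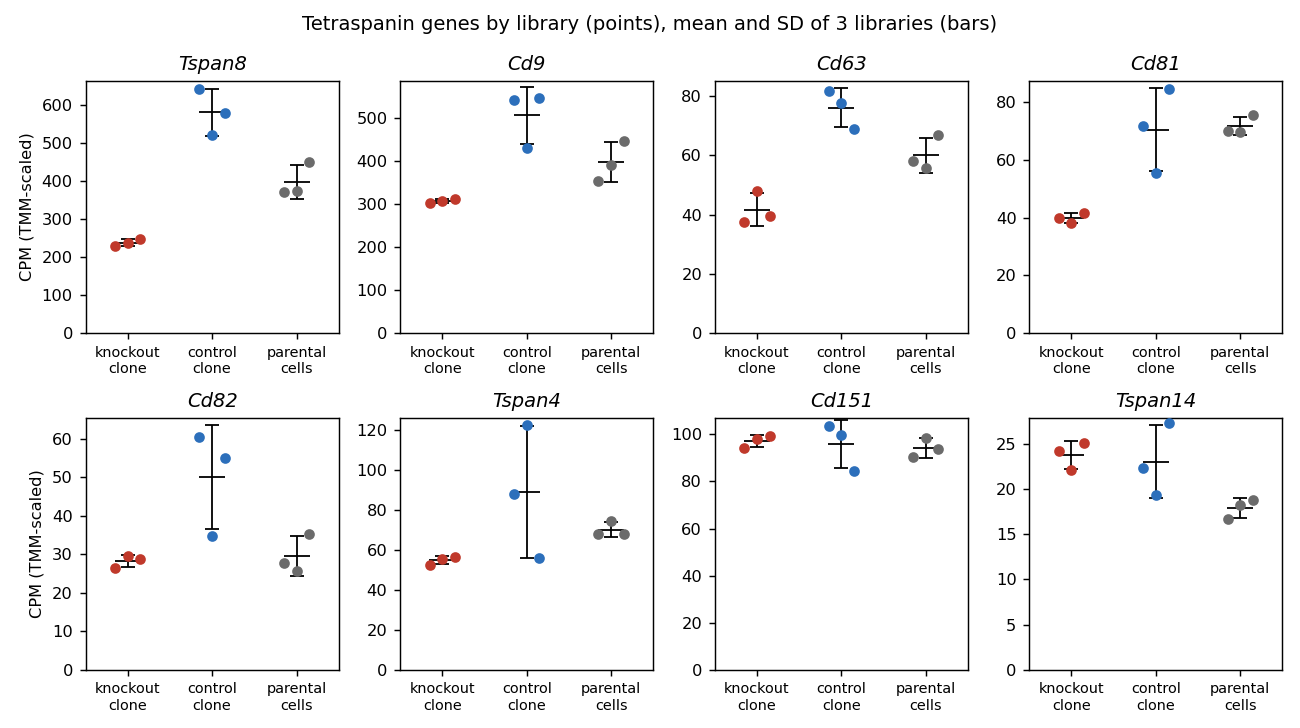
CPM of the 8 tested tetraspanin genes in each library, 1 panel per gene, with points for libraries in the order of replicates 1 to 3 and bars for the mean and SD of a group. The E4 libraries are lowest for Tspan8, Cd9, Cd63 and Cd81, and for Cd151 all groups overlap.

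Tspan1 and Tspan6 were too low to test. Tspan1, which encodes a tetraspanin of secretory epithelia, lies on chromosome 4 from 116161869 to 116167601. It held 5 counts in the E4 libraries together, 16 in the C5 libraries and 22 in the parental libraries. Counted against clone C5, the E4 level was lower, the ratio being 3.03 (95% interval 1.06 to 10.6), and against the parental line it was 4.47 (1.65 to 15.1). These intervals cover counting error only, and with no filter edgeR did not call Tspan1 in either (adjusted p 0.194 and 0.0697). Tspan6, on the X chromosome from 133891068 to 133898429, was at 0 counts in all 9 libraries. That allows up to 0.054 CPM in clone E4, 0.051 CPM in clone C5 and 0.0548 CPM in the parental line, at 3 counts per group.

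Of the 8 tested tetraspanin genes, 6 were called lower in clone E4 than in clone C5, 0 were called higher and 2 were not called. Of all 13153 tested genes, 24.2% were called lower there and 42.9% in either direction. The median log2 fold change of the 8 genes was -0.77, against -0.02 for all tested genes. For 5 of the 8 the E4 libraries lay below all C5 libraries and for 0 above them, against 27.6% and 24% of all tested genes (51.6% either way). Summed over the 10 genes, the E4 libraries held 804.8, 835.5 and 849.5 CPM and the C5 libraries 1613, 1360 and 1503 CPM. Most of the sum comes from Cd9 and Tspan8, at mean shares of 37% and 28.6% in clone E4 and 33.9% and 38.8% in clone C5. The count of called genes was 5 without E4 replicate 1, 2 or 3 or C5 replicate 1 or 2, Tspan4 being the call lost in each.

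Against the parental line, 4 of the 8 genes were called lower in clone E4 and 1, Tspan14, higher. The background was 18.3% of tested genes lower, 13.1% higher and 31.4% in either direction. The median of the 8 genes was -0.36, against -0.01 for all tested genes. The parental libraries summed to 1056, 1108 and 1254 CPM, with mean shares of 34.8% for Cd9 and 34.9% for Tspan8. In 5 of the 8 genes the E4 libraries lay below all parental libraries (31.7% of tested genes) and in 1 above them (29.8%, and 61.5% either way). The count of called genes was 3, all lower, without E4 replicate 1, 2 or 3 and without parental replicate 2 or 3, and in each of these fits the calls of Cd9 and Tspan14 were lost.

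Between clone C5 and the parental line, Tspan8 and Cd82 were called higher and 0 of the 8 genes were called lower. The background was 10.4% of tested genes higher, 11% lower and 21.4% in either direction. Of the calls over all genes, 51.3% were lower, and 61.2% were lower when libraries were scaled by total counts. The median of the 8 genes was 0.34, against 0.01 for all tested genes. For 3 of the 8 the C5 libraries lay above all parental libraries, against 18.2% of tested genes, and for 0 below them, against 19.2% (37.3% either way). The count of called genes was 4 without C5 replicate 2 or 3, and 1, Tspan8, without C5 replicate 1 or parental replicate 1 or 2. The epithelial markers moved with these genes. Of the 8 markers, 6 were called lower in clone E4 than in clone C5 and 5 lower than in the parental line. Over all tested genes 24.2% and 18.3% were called lower in these comparisons. Epcam was called higher in both, at means of 0.61, 0.15 and 0.198 CPM in clone E4, clone C5 and the parental line. It passed the filter on low counts through clone E4 alone, so the filter favoured that call. Between clone C5 and the parental line 2 of the markers were called higher and 0 lower. Their part in the tetraspanin values was not tested.

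**Figure D3:**
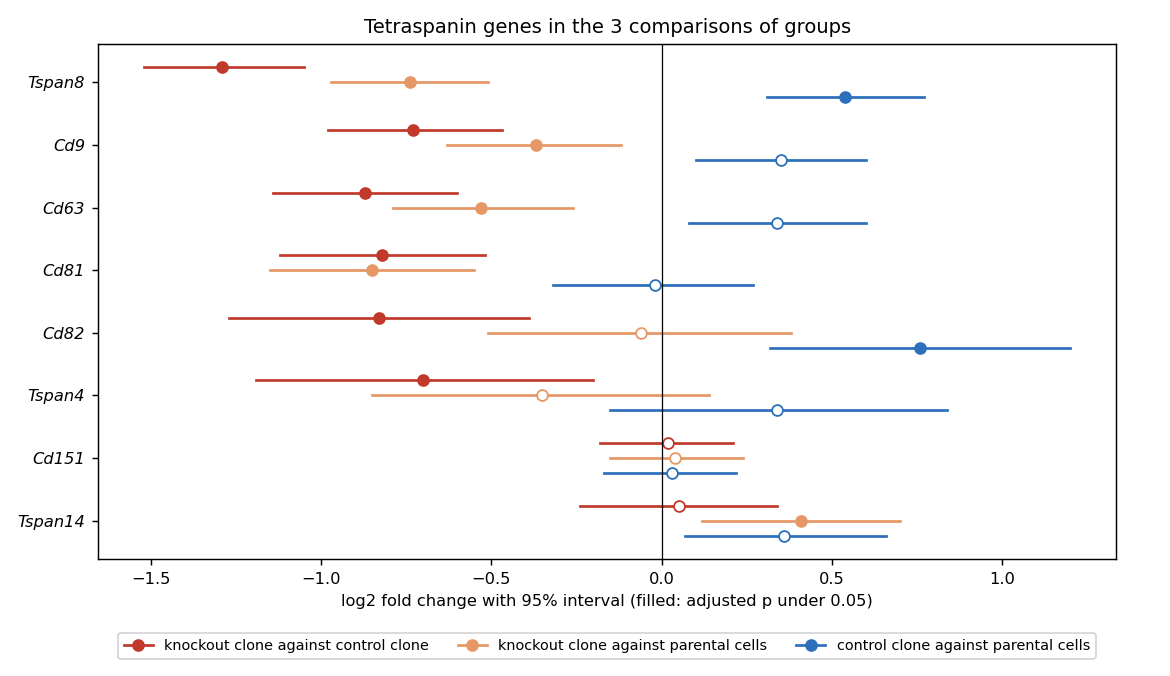
Log2 fold changes of the 8 tested tetraspanin genes in the 3 comparisons, with 95% intervals, filled where the adjusted p was under 0.05. Tspan8 has the lowest value, -1.29 against clone C5, and the Cd151 values lie at 0.02 to 0.04.

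Chromosomes differed in their medians, from -0.53 on chromosome 9 to 0.33 on chromosome 13 for clone E4 against clone C5. The median log2 fold change of tested genes in clone E4 against clone C5 was 0.05 on chromosome 10 (Tspan8, Cd63), -0.16 on chromosome 6 (Cd9), -0.02 on chromosome 7 (Cd81, Tspan4, Cd151) and -0.07 on chromosome 2 (Cd82). Against the parental line these medians were -0.06, 0, -0.02 and -0.08. For C5 against parental they were -0.09 on the chromosome of Tspan8 and -0.03 on that of Cd82. The part of the chromosomes in the tetraspanin values was not tested. Several genes also overlap others on the opposite strand, and the strand setting of the counting is not given in the sources used here. Tspan4 shares 292 bases of exon with Chid1, which was at 10.3 CPM in clone E4, 24.1 CPM in clone C5 and 13.5 CPM in the parental line. In C5 replicates 1, 2 and 3 Chid1 was at 23.7, 26.6 and 21.9 CPM, a narrower spread than that of Tspan4, and its part in the Tspan4 values was not tested. The overlapping transcripts Gm26728 (Cd9), R74862 (Cd81) and Gm10575 (Cd151) were at most 2.44 CPM in any group mean.

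Spread within clone C5 was not shared by all tetraspanin genes. On the log2 scale, C5 replicate 3 exceeded replicate 2 by 0.66 for Cd82, 0.60 for Cd81, 0.50 for Tspan14 and 0.35 for Cd9, with a median of 0.01 over all tested genes. The difference was 0.16 for Tspan8, -0.18 for Cd63, -0.24 for Cd151 and -1.12 for Tspan4. The SD of log2 CPM in clone C5 was 0.565 for Tspan4 and 0.426 for Cd82, above the median of 0.241 over tested genes, and 0.128 for Cd63 and 0.152 for Tspan8, below it. The epithelial markers summed to 9590, 7290 and 9750 CPM in C5 replicates 1, 2 and 3, lowest in replicate 2. That replicate was also the lowest for Tspan8, Cd9, Cd81, Cd82 and Tspan14, while replicate 3 was the lowest for Cd63, Cd151 and Tspan4.

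Besides these genes, 21 other tetraspanin genes of the mouse were examined, of which 14 were tested. In clone E4, 9 of the 14 were called lower than in clone C5 and 0 higher, with a median of -0.44, and 8 were called lower than in the parental line and 0 higher, with a median of -0.48. With Upk1b at its lower bound neither median could change, since it stayed the lowest value of the 14. Between clone C5 and the parental line 5 were called higher and 1 lower, with a median of 0.10. Over all tested genes the shares called lower in clone E4 were 24.2% against clone C5 and 18.3% against the parental line, and those of C5 against parental were 10.4% higher and 11% lower. The all-gene medians were -0.02, -0.01 and 0.01. Cd53 and Upk1b, with 3 and 0 counts in clone E4, are among the genes called in each comparison. Cd53 passed the filter on low counts through clone C5 alone, and Upk1b through clone C5 and the parental line. The filter thus favoured their E4 calls, which add no support to these counts.

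Tspan13 had the lowest fitted value of those with counts in every group and 5 CPM or more in the higher group. It was at 4.69, 6.18 and 5.61 CPM in the E4 libraries, 36.4, 15.6 and 51.4 CPM in the C5 libraries and 25.6, 27.9 and 35.8 CPM in the parental libraries, without overlap between clone E4 and the rest. Its log2 fold changes were -2.66 (adjusted p 0.000543, SE 0.38) and -2.44 (adjusted p 0.00133, SE 0.38). Tspan13 lies on chromosome 12, whose tested genes had medians of -0.25 and 0.02 in these comparisons. Tspan3 was lower by -0.83 (adjusted p 0.000198) and -1.05 (adjusted p 9.07e-05), and lies on chromosome 9, whose median was -0.53 in both. Tspan12 was at 13.9 and 12.2 CPM in the knockout and control clones and 38.2 CPM in the parental line, with log2 fold changes of -1.45 (adjusted p 0.000173) and -1.64 (adjusted p 0.000213) against the parental line.

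Upk1b, which encodes a uroplakin of the bladder lining, held 0 counts in the E4 libraries. It was at least 126-fold lower there than in clone C5, where its mean was 6.99 CPM (adjusted p 3.76e-05). The parental mean was 2.68 CPM, at least 49.8-fold above E4 (adjusted p 0.000186), both against a floor of 3 counts over the group. Upk1b lies on chromosome 16, whose medians were -0.35 and -0.29. It was called higher in clone C5 than in the parental line (1.38, adjusted p 0.0148). Cd53 and Cd37, tetraspanins of leukocytes that also stand in the leukocyte marker list, were at most 0.945 CPM and at 0 in the group means.

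**Figure D4:**
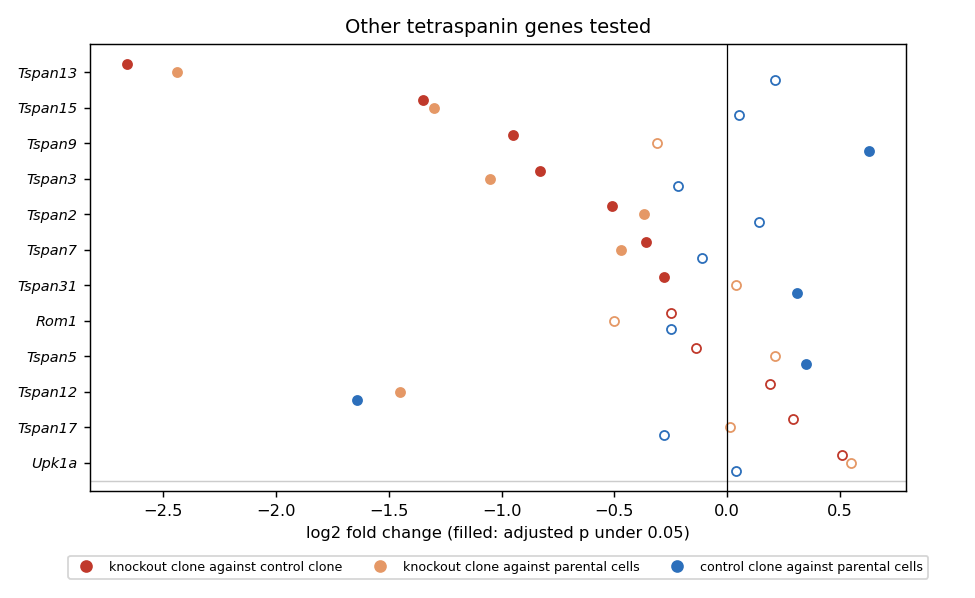
Log2 fold changes of 12 other tested tetraspanin genes in the 3 comparisons, filled where the adjusted p was under 0.05. Cd53 and Upk1b, with 3 and 0 counts in clone E4, are left out. Tspan13 has the lowest value, -2.66 against clone C5.

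The TspanC8 group has 6 genes, all of which bind ADAM10. Tspan15, one of them, was at 70.5, 80 and 72.8 CPM in the E4 libraries, 213, 174 and 185 CPM in the C5 libraries and 163, 172 and 216 CPM in the parental libraries. The E4 libraries lay below all others, with log2 fold changes of -1.35 (adjusted p 4.73e-05, SE 0.12) and -1.30 (adjusted p 9.79e-05, SE 0.12). Tspan5 was at 49.6, 54.6 and 43 CPM in the knockout, control and parental means, with E4 values of -0.14 and 0.21 that were not called (adjusted p 0.22 and 0.102). Tspan17 was at 9.28, 7.58 and 9.22 CPM and was not called either (adjusted p 0.174 and 0.966). Tspan33 was at most 0.344 CPM in a group mean and Tspan10 was at 0. Adam10 itself was at 201, 198 and 204 CPM in the E4 libraries, 397, 293 and 417 CPM in the C5 libraries and 405, 400 and 441 CPM in the parental libraries. It was called lower in clone E4 by -0.87 (adjusted p 0.000476, SE 0.12) and -1.05 (adjusted p 0.000303, SE 0.12), and lies on chromosome 9, with the median of -0.53 given above. The part of chromosome 9 in these values was not tested.

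Of 16 surface partners of tetraspanins, 15 were tested, Epcam among them, which is also one of the epithelial markers. In clone E4, 4 were called higher and 4 lower than in clone C5, with a median of 0.06, and 42.9% of all tested genes were called there. Against the parental line 2 were called higher and 3 lower, with a median of 0.03, a share of the list near the 31.4% called over all genes. Epcam, which passed the filter on low counts through clone E4 alone, is 1 of those called higher in both. Among the laminin-binding integrin genes that work with Cd151, Itgb4 was called lower, at 25.5, 27.9 and 23 CPM in the E4 libraries, 101, 84.1 and 103 CPM in the C5 libraries and 54.4, 57.8 and 60.7 CPM in the parental libraries. Its log2 fold changes were -1.91 (adjusted p 3.98e-06, SE 0.11) and -1.18 (adjusted p 7.95e-05, SE 0.11), and 0.74 between clone C5 and the parental line (adjusted p 0.00158). Its partner chain Itga6 had values of 0.07 and 0.02 (adjusted p 0.697 and 0.937), and Itga3 of -0.02 and 0.44 (adjusted p 0.937 and 0.13). Itgb1 was called higher against clone C5 (0.43, adjusted p 0.0464) and was at 0.39 against the parental line (adjusted p 0.0836).

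The direct partners of CD9 and CD81 differed. Ptgfrn was called lower, by -0.39 (adjusted p 0.00241) against clone C5 and -0.60 (adjusted p 0.000367) against the parental line. Igsf8 was at 0.24 (adjusted p 0.0558) and -0.07 (adjusted p 0.564), and neither was called. Zdhhc2, the palmitoyltransferase known for CD9 and CD151, was at 91.7, 90.8 and 92.6 CPM in the E4 libraries, 131, 109 and 123 CPM in the C5 libraries and 133, 145 and 144 CPM in the parental libraries. It was called lower in clone E4, by -0.40 (adjusted p 0.00363) and -0.62 (adjusted p 0.000563).

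Tetraspanins CD63, CD81 and CD9 are markers of extracellular vesicles, so 19 genes of vesicle formation and late endosomes were examined, all of them tested. In clone E4, 8 were called lower and 2 higher than in clone C5 (median -0.07), where 24.2% of all tested genes were called lower and 18.7% higher. Against the parental line 6 were called lower and 0 higher (median -0.16), where 18.3% of all tested genes were called lower and 13.1% higher. The all-gene medians were -0.02 and -0.01. Smpd3, the neutral sphingomyelinase that forms ceramide for exosome budding, was at 24.9, 36.6 and 25.9 CPM in the E4 libraries, 358, 313 and 284 CPM in the C5 libraries and 190, 195 and 212 CPM in the parental libraries. Its log2 fold changes were -3.45 (adjusted p 1.44e-06, SE 0.16) and -2.78 (adjusted p 5.98e-06, SE 0.16). Rab27b, a small GTPase that docks secretory vesicles, was called lower by -1.08 (adjusted p 0.000531) and -0.77 (adjusted p 0.00494). Its relative Rab27a was at 1.32, 1.39 and 0.934 CPM in the E4 libraries, 7.03, 2.08 and 17.1 CPM in the C5 libraries and 5.01, 5.3 and 7.65 CPM in the parental libraries. The C5 libraries were spread from near the E4 level to above all others. Rab27a was called lower in clone E4 against both (adjusted p 0.0064 and 0.0248), and the fit was not repeated for it without single libraries. Rab27a also lies on chromosome 9.

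Sdcbp encodes syntenin, which binds CD63 and syndecans. It was called lower by -0.44 (adjusted p 0.00357) and -0.43 (adjusted p 0.00642), and the syndecan gene Sdc1 by -1.02 (adjusted p 0.000187) and -0.99 (adjusted p 0.000364). Another syndecan gene, Sdc4, was called lower against clone C5 (-0.32, adjusted p 0.00738) and not against the parental line (-0.04, adjusted p 0.739). Lamp1, Lamp2 and Rab7, genes of the late endosome and lysosome where CD63 resides, had values between 0.01 and 0.10 in both E4 comparisons and were not called.

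**Figure D5:**
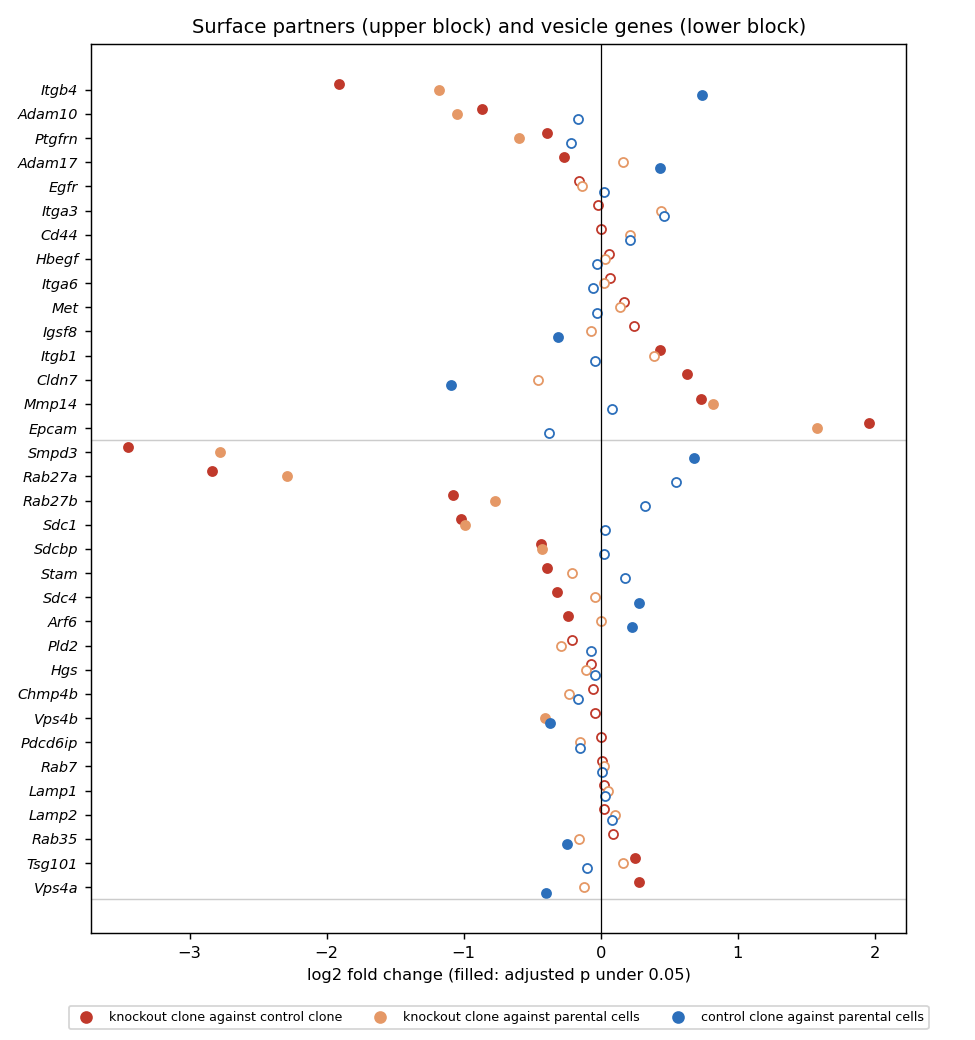
Log2 fold changes of 15 surface partners (upper block) and 19 genes of vesicle formation and late endosomes (lower block) in the 3 comparisons, filled where the adjusted p was under 0.05. Itgb4 and Smpd3 have the lowest values of their blocks.

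Tspan8 and Cd63 had the widest range of group means among the 8 tested members of the set of 10. The genes most like each were sought among 10012 genes averaging 5 CPM or more, those 8 members being left out. Likeness is Pearson's r of log2 CPM over the 9 libraries and is given as a description, since the libraries form 3 groups and share their scaling. For Tspan8 these were Tmed10 (0.9952), Car2 (0.9942) and Bcam (0.992). Car2, which encodes a carbonic anhydrase of duct cells, had means of 10.5, 51.7 and 27.8 CPM in the knockout, control and parental groups. An r above 0.95 was reached by 204 of the 10012 genes. For Cd63 they were Gcnt1 (0.9898), Qsox1 (0.9894) and Psca (0.9833), and 70 genes reached an r above 0.95.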

How the data were processed

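RNA was measured by RNA-seq (total RNA, KAPA mRNA HyperPrep libraries, per the labels' protocols). The authors deposited 1 table of estimated counts, with a column for each library. All were whole numbers in the file, so rounding changed none. STAR 2.5.2, RSEM 1.3.0, DESeq2 1.10.1 and build GRCm38 are named in the submitters' processing notes, without their roles. RSEM divides reads that match several genes by an estimate. Of 54838 identifiers, 54809 had a symbol in GENCODE M21 (GRCm38), the source of positions and exon lengths.

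Counts were tested with edgeR 4.0.16 (quasi-likelihood, filterByExpr with minimum count 10 and minimum total 15, TMM, group as the only term) in R 4.3.3, with all 9 libraries in 1 fit, and p-values were adjusted over 13153 tested genes. No library pair agreed within sampling noise (lowest chi-square per gene 4.92). Depth was 16525869 to 23192701 counts, and the floor is 3 counts over a group. Exact 95% intervals cover counting error only, as reads without molecular identifiers are not independent. On simulated counts, the test recovered 86.1% of genes changed 2-fold for clone E4 against clone C5 (12935 genes, 6 unchanged genes called).

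The members and lists were chosen with earlier results of these data known. Named were all 10 members, Zdhhc20, Zdhhc2, the TspanC8 genes, fixed partners, up to 5 called genes per list and comparison (log2 fold change 1 or more in size, higher group's mean 5 CPM or more), and the 3 genes most like each of 2 members. Epcam, Cd53, Cd37, Upk1b in full, Lamp1, Lamp2, Rab7 and Chid1 were added after their values were seen. Sdc4, Tspan32, Ptprc and Upk1a are also named outside these rules. Alternatives were DESeq2 1.42.0 size factors or total counts, no filter or a 5 CPM mean minimum, limma 3.58.1 voom or the DESeq2 test, replicate numbers entered as a block, the groups compared fitted alone, and each library left out. Protein sequences were not used here.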

Additional observations from a re-analysis of the deposited data

How the results depend on the processing

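Over 17 alternatives, 366 of 408 values of single tetraspanin genes kept their direction and their side of the threshold, 24 lost their call, 9 gained one and 9, none of them called, turned their sign. For Cd151 in C5 against parental the sign turned under total counts (-0.02) and in 3 of the fits without 1 library, which ranged from -0.03 to 0.11. Without 1 library the other values that turned ranged from -0.07 to 0.08 for Cd151 and from -0.06 to 0.19 for Tspan14, both in E4 against C5, from -0.17 to 0.12 for Cd81 in C5 against parental, and from -0.16 to 0.08 for Cd82 in E4 against parental. Leaving out 1 library gave 5 to 6 called tetraspanin genes for clone E4 against clone C5 (6 with all libraries), 3 to 6 against the parental line (5 with all) and 1 to 4 for clone C5 against the parental line (2 with all). For the last, DESeq2 called 4 and the fit of the groups compared alone 1. Over all genes, leaving out 1 library gave 4301 to 7204, 2515 to 5693 and 1472 to 4102 called genes, against 5643, 4131 and 2814, and the fit of the groups compared alone gave 4348, 6840 and 1525. Other scalings moved the median of all genes by at most 0.05 on the log2 scale. Same-numbered libraries did not deviate together, since their correlations ran from -0.223 to 0.344 over 9 pairs, 3 of 9 libraries correlated best with their own number, and the labels state no pairing. With the replicate number as a block, 6, 5 and 2 tetraspanin genes were called in the 3 comparisons, as without it, and 5528, 3941 and 2492 of all genes. No call of a tetraspanin gene changed under the block. Alternatives were summarised for these 10 genes and for all genes, not for the other lists. Depth limits Tspan1 and Tspan6, with 43 and 0 counts. In the main fit the 3 groups share 1 estimate of spread per gene, so clone C5 also enters the tests of clone E4 against the parental line. The cause of these shifts was not tested.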

Other observations

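Tspan32, a tetraspanin of blood cells, held 33 counts in the C5 libraries together, 1 in the E4 libraries and 2 in the parental libraries. Cd53, another gene of that kind, held 55, 3 and 15 counts in the same order, so its level in clone C5 was 17.3 times that of clone E4 (95% counting interval 5.63 to 86.6) and 3.41 times that of the parental line (1.9 to 6.51). Ptprc, the general leukocyte gene, was at most 0.091 CPM in any group mean, and Cd37 was at 0. Upk1a, a uroplakin gene related to Upk1b, was at 6.24 CPM in clone E4, 4.37 CPM in clone C5 and 4.26 CPM in the parental line, and was not called (adjusted p 0.077 and 0.0777 in the E4 comparisons).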
